A study of Mus musculus with 2 samples.

Results

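The genes described here build and control the contractile apparatus of smooth muscle. They are 37 of the 43346 genes with an Ensembl ID in the deposited gene tables of newborn mouse stomach. The set is a list of symbols, matched through the Ensembl IDs without version to GENCODE M21 names, and all 37 were found. Of these genes, 36 had a mean TPM (transcript abundance per unit of length, with a fixed total per library) of at least 1. Only the sarcoglycan gene Sgca was below it.

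In smooth muscle, actin filaments anchored in dense bodies and at the membrane are pulled together by filaments of the myosin encoded by Myh11. Calcium with calmodulin turns on myosin light chain kinase, which phosphorylates the regulatory light chain, and myosin phosphatase removes that phosphate. Many genes of this machinery are switched on by serum response factor with its coactivator myocardin through a DNA element called the CArG box. In the stomach these cells form the muscle coats that mix and propel food, the thin muscle layer of the mucosa and the walls of blood vessels.

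The study profiled total RNA of the whole stomach of 2 pups of the mouse strain B6NCrl, pup 2 and pup 1, on the day of birth (postnatal day 0). Both pups came from 1 dam, carried no stated allele or treatment, and their sex was not collected. Each gave 1 library, made from 10 ng of RNA longer than 200 nucleotides. There is 1 group and no treated or control arm, so the comparison open to the data is between littermates. It has no replicate check, and no p is given.

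The expected counts (estimated reads per gene, shared reads divided among genes) summed to 49983574 in pup 2 and 51524479 in pup 1. Stomach identity markers were abundant in both libraries. The proton pump subunit gene Atp4a stood at 598 TPM in pup 2 and 519 TPM in pup 1, and the gastrokine gene Gkn2 at 5341 TPM in pup 2 and 5460 TPM in pup 1. The labels give each library its own pup, and the libraries were treated as separate samples.

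The members were high relative to other genes, but the set spanned more than 3 orders of magnitude. Their median level was 65.0 TPM in pup 2 and 57.0 TPM in pup 1, or 61.0 ± 5.66 TPM (SD, n = 2). Over the 13326 protein-coding nuclear genes at a mean TPM of at least 1, called the tested genes from here on, the median was 12.9 TPM in pup 2 and 12.5 TPM in pup 1. With the same minimum, the median over 36 members was 74.3 TPM in pup 2 and 73.0 TPM in pup 1. The 37 genes held 1.68% of all nuclear protein-coding TPM in pup 2 and 1.93% in pup 1 (1.80 ± 0.176%, SD, n = 2).

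Most of that RNA came from a handful of filament genes. Acta2, Actg2, Myl6 and Myl9 held 68.6% of the members' summed TPM in pup 2 and 68.3% in pup 1. Of the 37 genes, 5 had a mean of at least 1000 TPM, 15 of at least 100 and 28 of at least 10. Among the tested genes, 5 members ranked in the top 1%, 13 in the top 5% and 15 in the top 10%. In the order of mean level, 13 of the 36 neighbouring pairs had overlapping ranges over the pups. The order holds in its broad steps and is less firm between those neighbours. Some of them, such as Acta2 above Actg2, still kept their order within each pup.

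**Figure D1:**
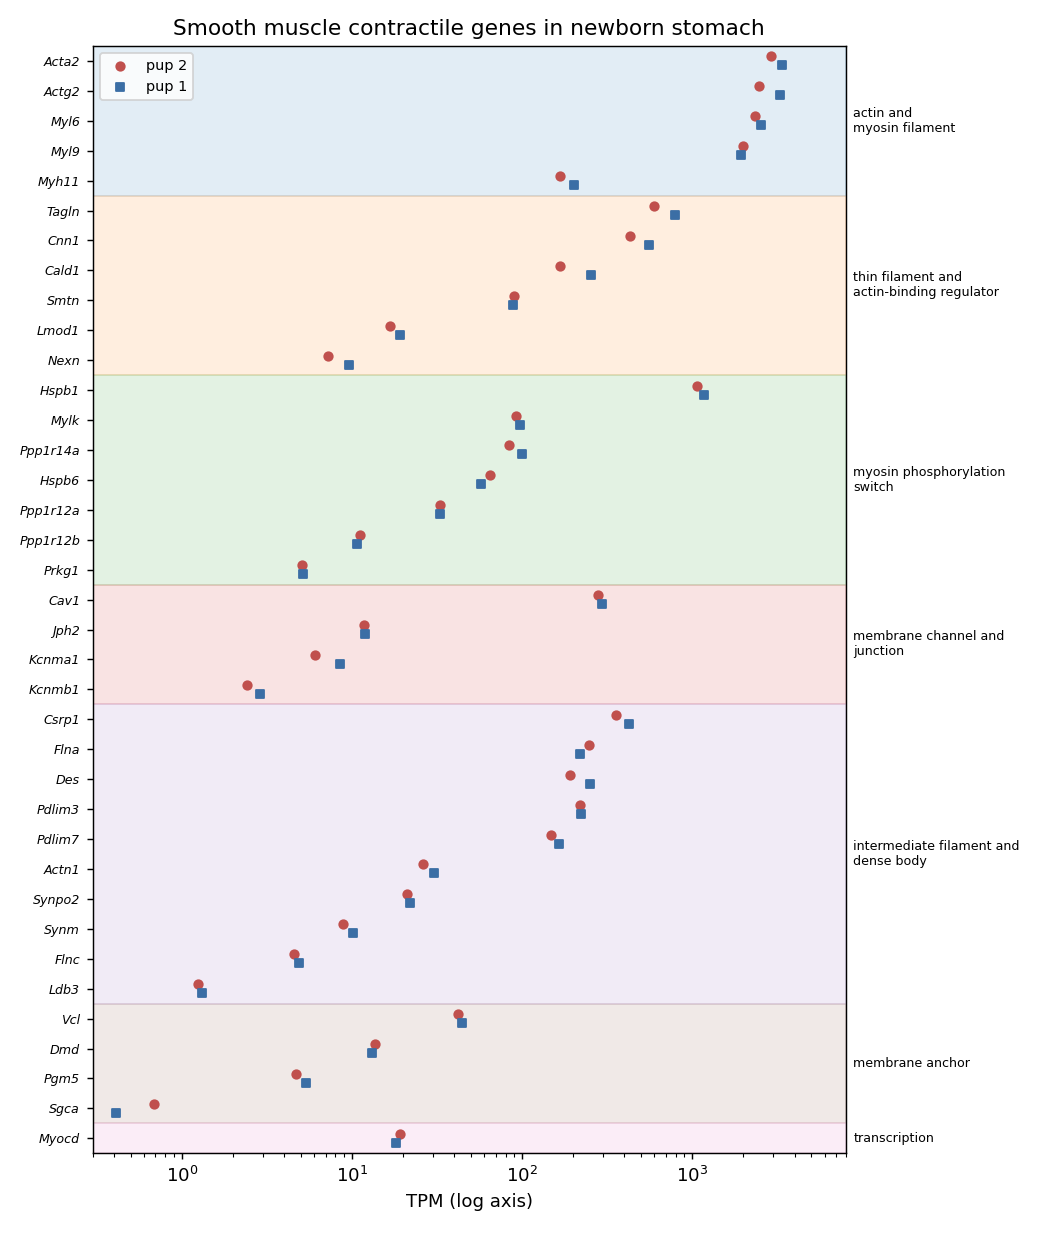
Level of each of the 37 genes in TPM on a log axis, red circles for pup 2 and blue squares for pup 1, grouped from top to bottom by role and ordered by mean level within each role. The 4 genes for actins and myosin light chains sit together near the right, Myh11 lies about an order of magnitude to their left, and the pups' points lie within 2-fold of each other for every gene.

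The filament genes came first in level. Acta2, the smooth muscle alpha-actin that vascular and visceral muscle both use, stood at 2921 TPM in pup 2 and 3358 TPM in pup 1. Actg2, the gamma-actin typical of gut and bladder muscle, stood at 2470 TPM in pup 2 and 3273 TPM in pup 1. Both actins were thus lower in pup 2, and their ranges over the pups overlapped each other: Acta2 over Actg2 was 1.18 in pup 2 and 1.03 in pup 1.

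The nonmuscle actins outweighed them. Actb was at 6028 TPM in pup 2 and 6438 TPM in pup 1, and Actg1 at 2047 TPM in pup 2 and 1957 TPM in pup 1. Acta2 and Actg2 together made up 39.9% of the TPM of the 6 actin genes in pup 2 and 44.0% in pup 1. The deposited intervals of the smooth muscle actins were narrow, at 2866 to 2892 TPM in pup 2 and 3297 to 3325 TPM in pup 1 for Acta2.

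Myh11, the only smooth muscle myosin heavy chain gene, stood at 166 TPM in pup 2 and 202 TPM in pup 1. It held 71.9% of class II nonsarcomeric myosin heavy chain TPM in pup 2 and 74.3% in pup 1, ahead of the nonmuscle genes Myh9, Myh10 and Myh14, which stood between 17.1 and 28.3 TPM. The 2 smooth muscle actins summed to 32.4 times the Myh11 level in pup 2 and 32.8 times in pup 1. That ratio barely moved between the pups, although both parts were lower in pup 2.

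The light chain genes were far more abundant than the heavy chain they bind. Myl6, the essential light chain that smooth and nonmuscle myosin share, stood at 2324 TPM in pup 2 and 2526 TPM in pup 1, which was 14.0 times the Myh11 level in pup 2 and 12.5 times in pup 1. Myl9, the regulatory light chain that the kinase phosphorylates, stood at 1999 TPM in pup 2 and 1945 TPM in pup 1, or 12.03 times Myh11 in pup 2 and 9.61 times in pup 1. Myl6 held 99.98% of the TPM it shared with Myl6b in pup 2 and 99.99% in pup 1. Myl9 held 74.3% beside the nonmuscle genes Myl12a and Myl12b in pup 2 and 72.8% in pup 1.

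**Figure D2:**
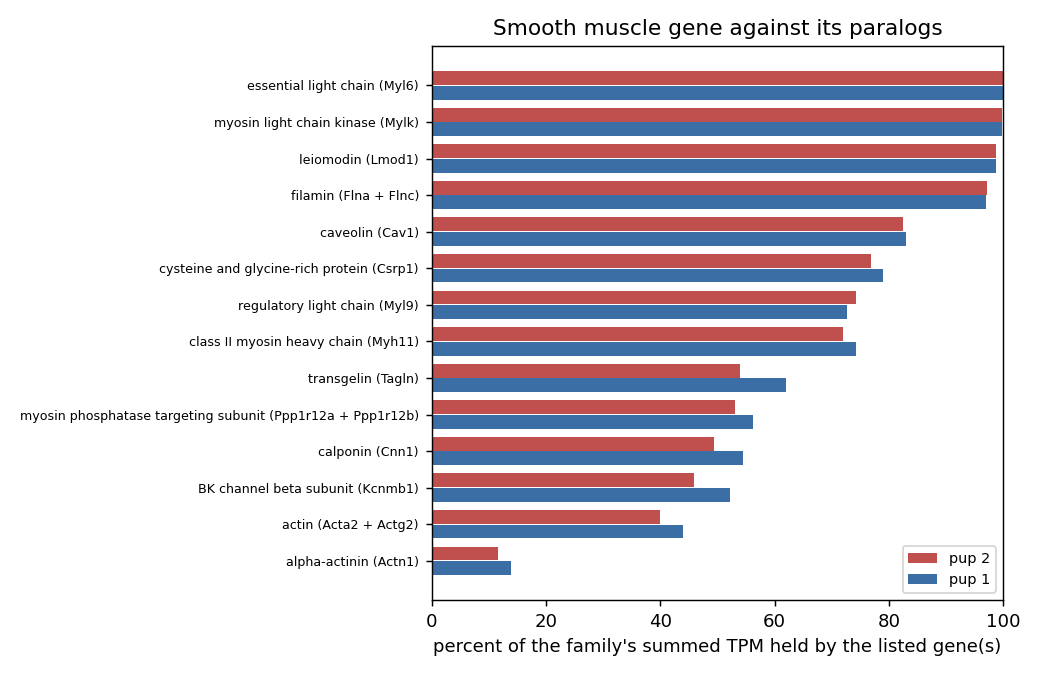
Percent of a gene family's summed TPM held by the member or members named on the vertical axis, with a red bar for pup 2 above a blue bar for pup 1. Some members, such as Myl6, Flna and Actn1, are not confined to smooth muscle. Myl6, Mylk, Lmod1 and the filamins Flna and Flnc taken as a pair hold over 95% of their families, while Actn1 holds 11.7% in pup 2 and 13.9% in pup 1.

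Smooth muscle myosin comes in forms made by exon choice, which set filament kinetics and tail structure, and the deposited tables do not separate them. The tables list 1 Myh11 transcript, Myh11-201, coding for 1972 residues without a head insert and with the long tail called SM1. GENCODE M21 holds 3 coding Myh11 transcripts. The head exon of the fast form SM-B adds 7 residues (chr16:14248580-14248600, minus strand, mm10), and the exon of the short tail SM2 adds 9 (coding part at chr16:14198061-14198088, minus strand, mm10). Both are shown because the Myh11 level above pools whatever forms were present. Capitals mark the bases of the alternative exon and lower case its neighbours in the M21 transcript.
SM-B head exon: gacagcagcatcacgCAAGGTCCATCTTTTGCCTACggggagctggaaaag
SM2 tail exon: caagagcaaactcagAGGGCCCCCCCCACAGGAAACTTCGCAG

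Actg2 showed the reverse case, with 2 quantified transcripts that code for the same 376 residues from different starts. Actg2-201 begins 8275 bases upstream of Actg2-202 on the minus strand of chromosome 6. Actg2-201 stood at 1416 TPM in pup 2, with a deposited 95% interval of 1360 to 1447, and at 2200 TPM in pup 1, with an interval of 2111 to 2213. Actg2-202 stood at 1040 TPM in pup 2 (972 to 1063) and 1047 TPM in pup 1 (986 to 1090). The difference in Actg2 between the pups was thus carried by the transcript with the upstream start, whose intervals were apart, while those of the downstream start overlapped. Actg2-201 held 57.3% of the gene's TPM in pup 2 and 67.2% in pup 1.

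Genes for thin filament regulators formed the next tier and differed most between the pups. Tagln, the actin-bundling protein SM22-alpha, stood at 600.3 TPM in pup 2 and 789 TPM in pup 1. Cnn1, the calponin that restrains actomyosin, stood at 432 TPM in pup 2 and 555 TPM in pup 1. Tagln over Cnn1 was 1.39 in pup 2 and 1.42 in pup 1, so these genes kept their proportion while both were lower in pup 2.

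Their nonmuscle relatives were nearly as abundant and differed less between the pups. Tagln2 stood at 503 TPM in pup 2 and 475 TPM in pup 1, and Tagln held 54.0% of transgelin TPM in pup 2 and 61.9% in pup 1. Cnn1 held 49.4% of calponin TPM in pup 2 and 54.5% in pup 1, with Cnn3 at 244 TPM in pup 2 and 260.4 TPM in pup 1.

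Lower down, Smtn, the smoothelin of contractile cells, stood at 89.3 TPM in pup 2 and 89.0 TPM in pup 1. Lmod1, the leiomodin that starts actin filaments, stood at 16.8 TPM in pup 2 and 19.2 TPM in pup 1. It held 98.8% of leiomodin TPM in each pup, with the striated muscle genes Lmod2 and Lmod3 at or below 0.23 TPM. Nexn, an actin-binding protein of muscle, stood at 7.22 TPM in pup 2 and 9.63 TPM in pup 1.

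Cald1, the actin- and myosin-binding protein caldesmon, had the largest difference of the set, at 168 TPM in pup 2 and 254 TPM in pup 1. Smooth muscle uses the heavy form, h-caldesmon, with a long central domain, and other cells use the light form, l-caldesmon. The domain corresponds to 624 coding bases (chr6:34746016-34746639, plus strand, mm10) that add 208 residues in the complete transcript Cald1-205, of 768 residues. The first 75 bases are given in capitals, after 15 bases of the sequence both forms share.
Cald1 long central domain, first bases: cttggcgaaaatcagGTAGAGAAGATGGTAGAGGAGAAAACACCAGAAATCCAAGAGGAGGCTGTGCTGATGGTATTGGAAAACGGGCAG

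Transcripts with the domain held 7.79% of the TPM of the 10 transcripts that span it in pup 2 and 13.6% in pup 1 (10.7 ± 4.12%, SD, n = 2), so the light form made up most of it in both stomachs. Their TPM was 8.55 in pup 2 and 23.0 in pup 1. Cald1-205 alone stood at 2.64 TPM in pup 2 (1.75 to 3.44) and 5.64 TPM in pup 1 (4.21 to 7.27), with intervals apart.

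Little of the Cald1 level lay in complete coding transcripts. The incomplete Cald1-211 held 43.3% of it in pup 2 and 45.5% in pup 1, and the intron-retaining Cald1-215 held 33.5% in pup 2 and 32.9% in pup 1. Cald1-204, a light form with 536 residues, was at 20.5 TPM in pup 2 and 20.1 TPM in pup 1. With complete coding transcripts only, the log2 ratio of pup 2 to pup 1 for Cald1 was -0.19, against -0.60 over all of its transcripts, a choice of transcripts made after the values were seen.

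Smtn forms were also quantified apart and were picked for description after their values were seen. Smoothelin-B, the long form best known from blood vessels, corresponds to transcripts of 923 and 921 residues that summed to 74.3 TPM in pup 2 and 74.0 TPM in pup 1. The 436-residue transcript Smtn-201, the length of smoothelin-A of visceral muscle, stood at 10.1 TPM in pup 2 and 10.2 TPM in pup 1. The long form led in both pups, and each form stood at close levels in both.

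The genes grouped here as the phosphorylation switch, with Hspb1 and Hspb6 counted in, differed in both directions. Mylk, Ppp1r14a and Hspb1 were lower in pup 2 with intervals apart, and only Hspb6 was higher with intervals apart. Mylk, the kinase, stood at 92.5 TPM in pup 2 and 97.7 TPM in pup 1. Its muscle relatives Mylk2, Mylk3 and Mylk4 together left it 99.8% of the family's TPM in each pup. The long transcript Mylk-201, of 1950 residues, held 99.4% of the Mylk level in each pup. The other listed transcript retains an intron, so no shorter coding form was quantified apart. That includes telokin, the short product of the end of the gene. The Mylk level pools whatever forms were present, and the 99.4% is no measure of their mix.

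Ppp1r12a, the targeting subunit MYPT1 of myosin phosphatase, stood at 32.9 TPM in pup 2 and 33.0 TPM in pup 1. Its relative Ppp1r12b stood at 11.2 TPM in pup 2 and 10.7 TPM in pup 1. Ppp1r14a, the phosphatase inhibitor CPI-17, was above both, at 83.5 TPM in pup 2 and 100.4 TPM in pup 1. Kinase over the summed targeting subunits was 2.10 in pup 2 and 2.24 in pup 1, and inhibitor over the same sum was 1.90 in pup 2 and 2.30 in pup 1.

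Prkg1, the cGMP-dependent kinase of relaxation, was low at 5.06 TPM in pup 2 and 5.13 TPM in pup 1. Its 686-residue transcript, the length of the type I beta kinase, stood at 3.05 TPM in pup 2 and 3.46 TPM in pup 1, and the 671-residue one, the length of I alpha, at 1.64 TPM in pup 2 and 1.55 TPM in pup 1; both were picked after their values were seen. Small heat shock proteins linked to actin and its regulation were far higher. Hspb1, which many cell types express, stood at 1070 TPM in pup 2 and 1173 TPM in pup 1. Hspb6, the relaxation-linked protein HSP20, stood at 65.0 TPM in pup 2 and 57.0 TPM in pup 1, and had the highest ratio of pup 2 to pup 1 among the 36 members at a mean TPM of at least 1.

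Among genes for membrane channels and junctions, Cav1, the caveolin of the membrane pits, led at 278 TPM in pup 2 and 296 TPM in pup 1. Jph2, a junctophilin that ties calcium stores to the membrane, stood at 11.7 TPM in pup 2 and 11.9 TPM in pup 1. The pore gene Kcnma1 of the BK potassium channel, which limits contraction, stood at 6.06 TPM in pup 2 and 8.51 TPM in pup 1. Its smooth muscle beta subunit Kcnmb1 stood at 2.42 TPM in pup 2 and 2.87 TPM in pup 1, below the pore in both.

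Dense body and intermediate filament genes covered a wide range. The LIM protein Csrp1 led at 359 TPM in pup 2 and 426 TPM in pup 1. Des, the desmin of muscle intermediate filaments, stood at 191 TPM in pup 2 and 249.7 TPM in pup 1, and its partner synemin, Synm, at 8.82 TPM in pup 2 and 10.2 TPM in pup 1. Both were lower in pup 2, with intervals apart.

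The PDZ-LIM genes Pdlim3 and Pdlim7 were near the filamin Flna in level. Pdlim3 stood at 219 TPM in pup 2 and 222 TPM in pup 1, and Pdlim7 at 148 TPM in pup 2 and 165 TPM in pup 1. Flna, which crosslinks actin in most cells, stood at 248 TPM in pup 2 and 220.5 TPM in pup 1, and the muscle filamin Flnc at 4.54 TPM in pup 2 and 4.90 TPM in pup 1. Synpo2, an actin-bundling protein, stood at 20.99 TPM in pup 2 and 22.02 TPM in pup 1, and Ldb3, better known from striated Z-discs, at 1.24 TPM in pup 2 and 1.32 TPM in pup 1.

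Actn1, the alpha-actinin that crosslinks actin in dense bodies, stood at 26.3 TPM in pup 2 and 30.3 TPM in pup 1. The nonmuscle gene Actn4 was far higher, at 195 TPM in pup 2 and 186 TPM in pup 1. Actn1 itself swaps a pair of exons in its calcium-binding EF-hand. The 66-base smooth muscle exon (chr12:80170183-80170248, minus strand, mm10) belongs to Actn1-202, and the 81-base nonmuscle exon (chr12:80170686-80170766, minus strand, mm10) to Actn1-201. They are shown because the deposited tables quantify both forms apart, with the exon in capitals and 15 shared bases on each side.
Actn1 smooth muscle exon: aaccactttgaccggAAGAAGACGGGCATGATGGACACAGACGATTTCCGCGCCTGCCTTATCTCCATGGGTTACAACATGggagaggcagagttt
Actn1 nonmuscle exon: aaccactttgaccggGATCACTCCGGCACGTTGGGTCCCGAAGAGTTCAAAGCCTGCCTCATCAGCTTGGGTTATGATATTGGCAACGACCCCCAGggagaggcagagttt

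The smooth muscle form Actn1-202 was at 9.65 TPM in pup 2 (8.48 to 10.5) and 8.51 TPM in pup 1 (7.43 to 9.37), with overlapping intervals. The nonmuscle form Actn1-201 was at 16.7 TPM in pup 2 (15.5 to 17.3) and 21.8 TPM in pup 1 (20.6 to 22.4), with intervals apart. The smooth muscle exon was therefore in 36.7% of Actn1 TPM in pup 2 and 28.0% in pup 1 (32.4 ± 6.09%, SD, n = 2). By expected counts, not corrected for length, its share was 29.0% in pup 2 and 21.5% in pup 1. The split is an estimate: Actn1-202 is listed with 2661 of 2664 bases coding, and Actn1-201 with 2676 of 3739. The lower Actn1 level of pup 2 lay in the nonmuscle form.

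**Figure D3:**
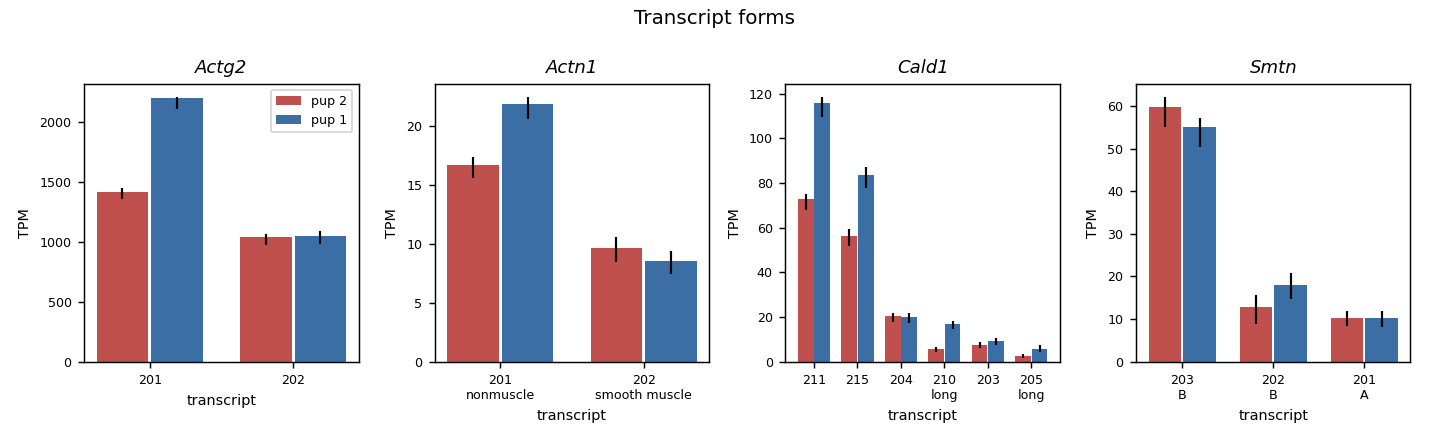
TPM of single transcripts of Actg2, Actn1, Cald1 and Smtn on linear axes that start at 0, with pup 2 in red to the left of pup 1 in blue; black lines are the deposited 95% intervals, which are set around the posterior mean and so can lie to one side of the bar's end. The Actg2 pups part at transcript 201 and not at 202, the Actn1 pups part at the nonmuscle form, and the long Cald1 forms are small beside transcripts 211 and 215.

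Membrane anchors were modest in level. Vcl, the vinculin of adhesion plaques, stood at 41.8 TPM in pup 2 and 44.2 TPM in pup 1. Its single listed transcript codes for 1066 residues, the length of vinculin without the muscle insert of metavinculin, so the forms were pooled. Pgm5, the vinculin-associated aciculin, stood at 4.72 TPM in pup 2 and 5.34 TPM in pup 1. Sgca, the alpha-sarcoglycan typical of striated muscle, stood at 0.69 TPM in pup 2 and 0.41 TPM in pup 1.

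Dmd stood at 13.7 TPM in pup 2 and 13.2 TPM in pup 1, but little of this was full-length dystrophin. The transcript coding for 3678 residues, Dmd-203, was at 0.99 TPM in pup 2 and 1.14 TPM in pup 1. The 617-residue Dmd-201, the length of the nonmuscle form Dp71, was at 3.27 TPM in pup 2 and 2.21 TPM in pup 1, and the intron-retaining Dmd-213 held 44.9% of the level in pup 2 and 55.2% in pup 1. These transcripts were named after their values were seen.

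Myocd, the myocardin coactivator, was the only transcriptional coactivator of the set, at 19.1 TPM in pup 2 and 18.2 TPM in pup 1. The short noncoding Myocd-205 held 61.6% of it in pup 2 and 54.2% in pup 1. The transcript coding for the 983-residue myocardin, Myocd-203, was at 5.51 TPM in pup 2 and 4.50 TPM in pup 1, again named after its values were seen.

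Levels of that kind rest on the annotation. In 28 members at least 90% of the TPM lay in complete coding transcripts. In 4 (Cald1, Dmd, Myocd and Flna) it was under 50%, and Flnc could not be assessed because its main transcript has no M21 entry. The tables list 1 transcript for 12 members, which leaves no form to compare.

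Between the littermates, the contractile genes were lower in pup 2 more often than other genes, by small amounts. Ratios are of pup 2 over pup 1 on the log2 scale, with 1 added to each TPM, which makes differences of low genes look smaller. Its median was -0.13 over the 36 tested members and 0.03 over all tested genes, of which the middle 90% lay between -0.25 and 0.29. Of the members, 29 of 36 were below 0, where 41.2% of all tested genes were. In bulk RNA, fewer smooth muscle cells in a sample and less of these RNAs per cell cannot be told apart.

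The size of the shift was modest. No member reached 2-fold either way, and 0.285% of the tested genes did. Lower in pup 2 by at least 0.32 on the log2 scale were 7 members, Actg2, Tagln, Cnn1, Des, Kcnma1, Cald1 and Nexn, where 2.88% of the tested genes were. None was higher by that much, where 3.95% of the tested genes were. The range ran from -0.60 for Cald1 to 0.19 for Hspb6.

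The deposited 95% intervals cover the error of quantification and not variation between animals. They were apart and lower in pup 2 for 20 members, where 8.37% of the tested genes were. They were apart and higher for 3 members, Myl9, Flna and Hspb6, where 13.2% of the tested genes were. Of these, Flna had a ratio of 0.17, but of 0.07 over complete coding transcripts, which held 35.4% of its TPM in pup 2 and 38.01% in pup 1. Its noncoding Flna-215 held 39.4% in pup 2 and 39.6% in pup 1, and after TMM scaling the ratio was 0.05. The 13 members with overlapping intervals included Smtn, Ppp1r12a, Ppp1r12b, Prkg1, Jph2, Pdlim3 and Myocd.

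High genes have narrow intervals, so level matters in reading these counts. At a mean of at least 100 TPM there were 15 members, of which 13 were below 0, 12 had intervals apart and lower and 2 apart and higher. Of the 1289 tested genes at that level, 57.2% were below 0, 29.2% were apart and lower and 20.0% were apart and higher. The median ratio of these genes was -0.02 and that of the 15 members -0.20.

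Scaling moved the sign of a few members. With expected counts scaled by TMM, 33 of 36 members were below 0, where 52.8% of the tested genes were, and the median over all tested genes was -0.01 in place of 0.03. TMM lowered most ratios alike, and the members that crossed 0 lay close to it: Smtn, Myocd, Myl9 and Ppp1r12b. Myl9 was at 0.04 by TPM and -0.0052 after TMM, so its direction is not settled. Counts divided by DESeq2 size factors were in effect unscaled, since both factors came out at 1, and 56.1% of the tested genes and 33 of 36 members were below 0. Flna, Hspb6 and Dmd stayed above 0, and no member moved from below to above.

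By role, the thin filament regulators were lowest, with a median ratio of -0.37 and 5 of 6 members below 0. The filament genes followed at -0.20 with 4 of 5 below 0. The channel and junction genes were at -0.13 with 4 of 4, the dense body genes at -0.12 with 9 of 10, and the anchors at -0.08 with 2 of 3. The phosphorylation switch, with Hspb1 and Hspb6 counted in, lay near 0 at -0.02 with 5 of 7 below 0, and Myocd was at 0.07. The values by role are medians over a few genes each and were not tested against each other. Of all tested genes, 41.2% were below 0.

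**Figure D4:**
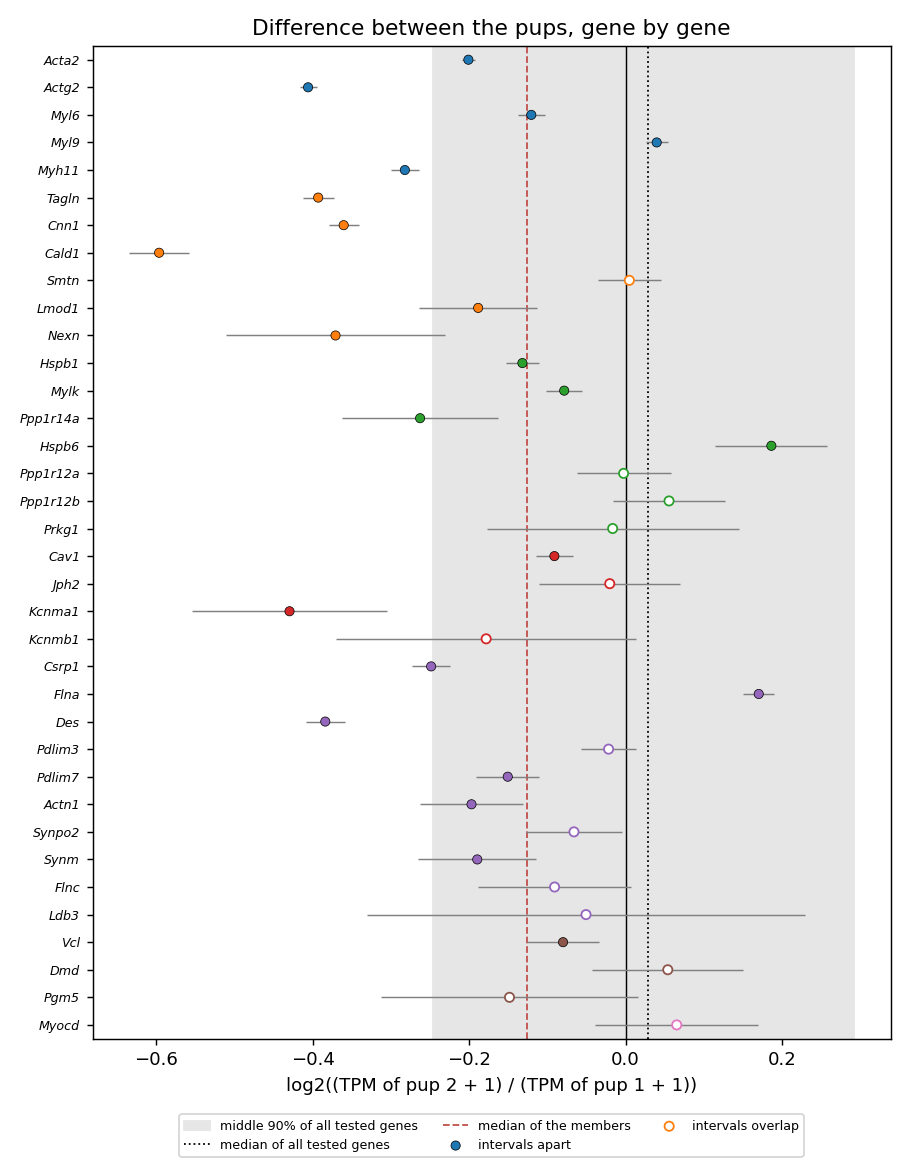
log2 ratio of pup 2 to pup 1 for the 36 members at a mean TPM of at least 1, coloured by role in the same order as the plot of levels; filled points have deposited intervals apart, and horizontal bars are 95% ranges from counting and quantification error. The grey band is the middle 90% of all tested genes; Cald1, Kcnma1, Actg2, Tagln, Des, Nexn, Cnn1, Myh11, Ppp1r14a and Csrp1 lie to its left and none to its right.

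The members were also compared with genes of like transcript length. Over 5 length classes with equal numbers of genes, from short to long, the members' median ratios were -0.13, -0.20, -0.36, -0.08 and -0.08, and those of all tested genes between -0.01 and 0.05. The members were below the other genes in each class, on 3 to 12 members a class.

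Transcription regulators around serum response factor and myocardin leaned higher in pup 2, by small amounts. Of 16 tested, 4 were below 0 and 12 above, where 58.4% of all tested genes were above. Intervals were apart and higher for 6, where 13.2% of all tested genes were, and apart and lower for 0, where 8.37% were. The median ratio was 0.11 by TPM and 0.05 after TMM scaling. Fhl2, a LIM cofactor, stood at 106 TPM in pup 2 and 108 TPM in pup 1, Klf4, which opposes the muscle programme, at 85.2 TPM in pup 2 and 75.4 TPM in pup 1, and Foxf1, a mesenchymal factor of the gut, at 54.9 TPM in pup 2 and 50.9 TPM in pup 1. In RNA of the whole stomach, the cells that hold these transcripts, muscle or other, were not told apart.

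A search for the CArG box itself covered the 250 bases before each RefSeq start (GRCm38.p6), on both strands. The strict form of the box was present in 5 of the 32 members that have a promoter in that table (15.6%) and in 439 of 27025 genes (1.62%). They were Myl9, Myl6, Vcl, Ldb3 and Dmd, and the Myl6 match lies before an internal start, inside the gene. The other matches are given with the box in capitals, Myl9 at chr2:156775293-156775322 (plus strand), Vcl at chr14:20929161-20929190 (plus strand), Ldb3 at chr14:34588697-34588726 (minus strand) and Dmd at chrX:82948762-82948791 (plus strand).
Myl9: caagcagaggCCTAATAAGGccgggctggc
Vcl: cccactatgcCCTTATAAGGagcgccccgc
Ldb3: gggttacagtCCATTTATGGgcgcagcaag
Dmd: catgggcagtCCTATTATGGgaaagcaact

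The genes with a match in this search were not the ones that differed most between the pups. The 5, Myl6 with its internal match included, had a median ratio of -0.05 with 3 below 0. The 26 tested members without a match had a median of -0.14 with 22 below 0, where 41.2% of all tested genes were. A match is a description of these letters, and members without one were not searched further out or with a looser box. Control of the members by the box was therefore not tested.

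Genes around the contractile apparatus mostly lay near 0, with the adhesion complex as an exception. For each list from here on, the share to compare is 41.2% of all tested genes below 0. Calcium handling genes (19 tested) had a median ratio of 0.01 with 7 below 0, with the calmodulin genes Calm2 at 665 TPM in pup 2 and 723 TPM in pup 1, and Calm3 at 47.5 TPM in pup 2 and 42.0 TPM in pup 1.

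Receptors for contractile signals were low. Of 12 tested, 6 were below 0 and the median ratio was -0.0031, with the endothelin receptor Ednrb at 33.6 TPM in pup 2 and 39.4 TPM in pup 1, the thromboxane receptor Tbxa2r at 16.6 TPM in pup 2 and 17.2 TPM in pup 1 and the prostaglandin receptor Ptger3 at 13.5 TPM in pup 2 and 13.2 TPM in pup 1. Genes of relaxation by cyclic nucleotides (12 tested) had a median of 0.02 with 4 below 0. They were led by the protein kinase A genes Prkar1a at 151 TPM in pup 2 and 151 TPM in pup 1 and Prkaca at 53.9 TPM in pup 2 and 53.3 TPM in pup 1, and the channel gene Kcnj8 at 43.3 TPM in pup 2 and 43.1 TPM in pup 1.

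Genes that connect the apparatus to the matrix were described by a pair of lists. Adhesion complex genes (20 tested) had a median ratio of -0.12, close to the members' -0.13. Of these genes, 15 were below 0, where 41.2% of all tested genes were. Intervals were apart and lower for 8, where 8.37% of all tested genes were, and apart and higher for 3, where 13.2% were. Leading them were the integrin Itgb1 at 193 TPM in pup 2 and 211 TPM in pup 1, the kindlin Fermt2 at 110 TPM in pup 2 and 121 TPM in pup 1 and Lims1 at 85.6 TPM in pup 2 and 93.5 TPM in pup 1. Dystroglycan complex and caveola genes (16 tested) had a median of -0.03 with 9 below 0, led by Cavin1 at 268 TPM in pup 2 and 284 TPM in pup 1, Cavin3 at 228 TPM in pup 2 and 259 TPM in pup 1 and Cav2 at 53.8 TPM in pup 2 and 54.6 TPM in pup 1.

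Other smooth muscle genes that are not part of the set were spread around 0. Of 20 tested, 11 were below 0 with a median ratio of -0.01, and 3 low genes were higher in pup 2 by at least 0.32 on the log2 scale, named after their values were seen. Itih4 stood at 2.06 TPM in pup 2 and 1.06 TPM in pup 1, Hspb7 at 3.03 TPM in pup 2 and 1.95 TPM in pup 1 and Nrip2 at 2.89 TPM in pup 2 and 1.84 TPM in pup 1. The list was led by Fhl1 at 330 TPM in pup 2 and 336 TPM in pup 1, Tgfb1i1 at 152 TPM in pup 2 and 143 TPM in pup 1 and Rbpms at 99.2 TPM in pup 2 and 101 TPM in pup 1. Nonmuscle cytoskeleton genes (11 tested) had a median of -0.01 with 6 below 0. After TMM scaling the calcium handling and relaxation lists had medians of -0.01 each, so their signs rest on the scaling.

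Markers of other muscle and wall cells had median ratios above the members' -0.13, by a small margin for the mesothelium. Skeletal muscle markers (18 genes) summed to 118 TPM in pup 2 and 100.1 TPM in pup 1. All 10 tested were above 0, where 58.4% of all tested genes were, with a median ratio of 0.26. They were led by Ckm at 30.9 TPM in pup 2 and 29.3 TPM in pup 1. Next were Acta1 at 23.4 TPM in pup 2 and 19.7 TPM in pup 1, and Tnni2 at 15.5 TPM in pup 2 and 15.4 TPM in pup 1. Of the defining adult markers, Myh4 was listed at 0 in both pups, and Myh1 and Myh2 were at or below 0.08 TPM. In all, 8 of the 18 had a mean under 1 TPM.

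Cardiac markers (13 genes) summed to 219 TPM in pup 2 and 207 TPM in pup 1, led by Myl7 at 128 TPM in pup 2 and 126 TPM in pup 1, Tnnt2 at 34.0 TPM in pup 2 and 31.0 TPM in pup 1 and Actc1 at 26.6 TPM in pup 2 and 24.4 TPM in pup 1. Their 4 tested genes had a median of 0.12, with none below 0, where 41.2% of all tested genes were. Of the 13, 9 had a mean under 1 TPM. Among these, Myh6 stood at 0.05 TPM in pup 2 and 0.09 TPM in pup 1, and Myl2 at 0.18 TPM in pup 2 and 0.26 TPM in pup 1. Whether striated muscle cells were in the samples was not tested. Nor was any part of such cells in members that striated muscle also uses, such as Des, Ldb3 and Flnc.

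Vascular mural cells, the other source of Acta2, Tagln and Myh11, had low markers. The 10 genes summed to 139 TPM in pup 2 and 149 TPM in pup 1 with a median ratio of 0.00, led by Ndufa4l2 at 47.8 TPM in pup 2 and 56.8 TPM in pup 1, Kcnj8, and Rgs5 at 11.02 TPM in pup 2 and 10.4 TPM in pup 1. Fibroblast markers (10 genes) summed to 4558 TPM in pup 2 and 4802 TPM in pup 1 with a median of 0.01 (-0.05 after TMM scaling, as for the mural list), led by Sparc at 1449.6 TPM in pup 2 and 1703 TPM in pup 1, Col3a1 at 1104 TPM in pup 2 and 1068 TPM in pup 1, and Col1a1 at 700.0 TPM in pup 2 and 746 TPM in pup 1.

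The interstitial cells of Cajal, the pacemakers among the muscle, had a median of 0.06 over 4 tested markers, with 2 below 0, led by Gja1 at 114 TPM in pup 2 and 119 TPM in pup 1, Ano1 at 35.1 TPM in pup 2 and 27.4 TPM in pup 1, and Etv1 at 17.0 TPM in pup 2 and 17.3 TPM in pup 1. Mesothelial markers had a median of -0.09 over 6 genes, with 3 below 0. After TMM scaling their median was -0.14, where that of the members was -0.16. Krt19, which the epithelium also expresses, led them at 1408 TPM in pup 2 and 1319 TPM in pup 1. Msln stood at 40.4 TPM in pup 2 and 52.1 TPM in pup 1, and Upk1b at 36.5 TPM in pup 2 and 30.7 TPM in pup 1.

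Stomach epithelium markers mostly moved the other way from the contractile genes. Of 10 tested, 8 were above 0, where 58.4% of all tested genes were. Their median ratio was 0.12, and their sum was 92326 TPM in pup 2 and 86606 TPM in pup 1. They were led by Cym, the milk-clotting protease of newborns, at 64809 TPM in pup 2 and 59783 TPM in pup 1, by Tff1, a mucosal trefoil peptide, at 13022 TPM in pup 2 and 12874 TPM in pup 1, and by Gkn2. TPM sums to a fixed total, and the part of this difference in the members' ratios was not tested apart from the scaling by TMM above. With TMM the median was 0.07 for the epithelium markers and -0.16 for the members.

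**Figure D5:**
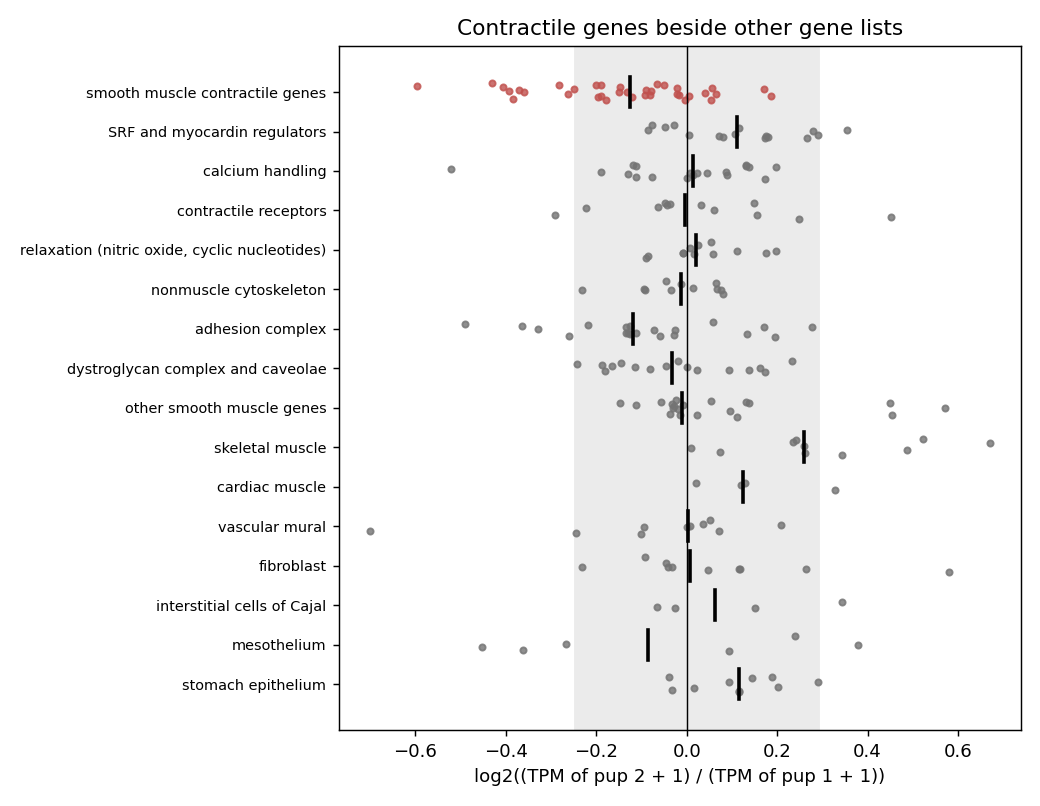
log2 ratio of pup 2 to pup 1 for the contractile genes (top row, red) and for 15 other gene lists (grey), 1 point per gene at a mean TPM of at least 1, with black ticks at the medians; the grey band is the middle 90% of all tested genes. The contractile genes have the lowest median of the 16 rows, by TPM, the adhesion complex is next at -0.12, and all 10 skeletal muscle points lie above 0.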

How the data were processed

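Total RNA libraries of 2 pups, 1 each, were analysed as 1 group. Per the text deposited with the samples, reads were quantified on mm10 with GENCODE M4; the aligner, quantifier, versions and strandedness were not given in the sources used here. Column names match RSEM output. Overlapping and antisense genes can therefore not be told apart. The deposited expected counts are estimated and not corrected for depth. The deposited TPM and FPKM values are per effective length, by the authors. The transcript tables also hold a deposited percent, the share of each transcript in its gene. The bounds of the 95% intervals and the posterior standard deviations of counts were deposited too and are treated as scores. The intervals are set around the posterior mean, and 26 of 37 members had their TPM inside its own interval in both pups.

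Symbols, exons and sequences came from GENCODE M21 on the same assembly (42462 of 43346 genes matched), and promoters from RefSeq, GRCm38.p6. From these were computed TPM ratios with a pseudocount of 1, over protein-coding nuclear genes at a mean TPM of at least 1, and shares of families and forms. Alternatives used a pseudocount of 0.1, a minimum of 5 TPM or none, posterior means, FPKM, other folds, and expected counts rounded to whole numbers and scaled by TMM (edgeR 4.0.16) or DESeq2 1.42.0 size factors, in R 4.3.3 and Python 3.11.15. The error of a ratio adds counting error to the posterior standard deviation. A count of 0 allows 3 counts, a CPM of 0.0600 in pup 2 and 0.0582 in pup 1, which covers counting error only. No differential test was run, as there is 1 library per pup.

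The members and the 16 other lists (234 entries, all found) were chosen with earlier results of these data known. Named were all members, the 3 highest genes of each list and any at 2-fold, and transcripts that define a form or lead in Myh11, Cald1, Actn1, Vcl, Mylk and Actg2. Of these, 1 gene that this rule named and 1 list are not reported here.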

Additional observations from a re-analysis of the deposited data

How the results depend on the processing

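The members' median level (61.0 TPM) was 48.7 as FPKM and 50.4 with complete coding transcripts only, an alternative chosen after seeing the data that leaves out Flnc. The median ratio of -0.13 was -0.16 with TMM-scaled CPM and -0.18 with DESeq2 scaling, whose size factors were 1 in both pups, so those counts are unscaled. With DESeq2, 33 of 36 members and 56.1% of the tested genes were below 0. The 7 members past 0.32 on the log2 scale became 19 at 1.1-fold, 1 at 1.5-fold and 0 at 2-fold. Among the other 32 results and settings computed, levels and shares moved by less than the spread between pups, and counts by less than 1.5 times. The median ratio has no spread between pups, and it moved by less than 0.027, the median error of the members' ratios. Leaving out 1 of 2 pups always moves a mean by less than their SD, so for levels and shares those settings could not come out otherwise. Without replicate 1 or without replicate 2, the median level ranged from 57.0 to 65.0 TPM, the share of coding TPM from 1.68 to 1.93%, the long Cald1 domain from 7.79 to 13.6%, the smooth muscle Actn1 exon from 28.0 to 36.7%, and 29 to 33 of 37 members kept their rank. No paired analysis was possible because there is 1 group of 2 pups.

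With 1 library per pup, animal, sex, dissection and library preparation cannot be told apart, and differences between the pups have no replicate check. Depth keeps the counting error of high members small, which does not make their small ratios differences between animals. Sgca, with 31 expected counts in pup 2 and 23 in pup 1, is near the limit.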
